A study of Mus musculus with 6 samples.

Results

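The genes described here are 87 splicing factors and RNA helicases of mouse alveolar macrophages, out of 10539 genes for which transcript levels were deposited. They were chosen by symbol: 10 SR proteins (Srsf), 19 heterogeneous nuclear ribonucleoproteins (Hnrnp), 9 subunits of the SF3A and SF3B complexes, 34 DDX and 15 DHX helicases. Hnrnpd, Ddx58 and Dhx58 were left out. Alveolar macrophages, the resident phagocytes of the airspace, came from the lungs of C57BL/6 mice, and C/EBPβ, a transcription factor of macrophage activation, was overexpressed in all 6 libraries. The 3 libraries named CEBPb had this overexpression alone as far as the labels say. The 3 libraries named CEBPb-A came from such cells after treatment with an adenovirus carrying A20, a ubiquitin-editing brake on NF-κB signalling encoded by Tnfaip3. For the virus of the CEBPb cells, the route of C/EBPβ overexpression, the age of the mice and the time after treatment, nothing is given in the labels, and no cells without C/EBPβ overexpression were analysed here. The labels do not say that replicates came from separate animals or cultures, so p-values measure only the spread between libraries, which may be technical.

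Splicing removes introns from a primary transcript in the spliceosome, a machine of small nuclear RNAs and proteins rebuilt on each intron. SR proteins bind exons through an RNA recognition motif, and their tails of alternating serine and arginine recruit the splicing machinery. hnRNP proteins coat nascent transcripts and often oppose exon inclusion, and the SF3A and SF3B complexes anchor the U2 particle at the branch point. DEAD-box (DDX) and DEAH-box (DHX) helicases use ATP to remodel RNA and RNA-protein complexes at each stage of this cycle, and also in ribosome assembly, export, translation and decay. In activated macrophages, changes in splicing and RNA decay are known to shape the cytokine response. The table holds 1 value per gene, so the choice between isoforms was not measured.

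The SR, DEAD-box and DEAH-box families are named after features that can be read in their coding sequences, taken here from GENCODE transcripts on GRCm38. In an SR protein, the tail is a run of serine and arginine codons, shown in capitals below with 24 coding bases on each side. Srsf6 had the longest uninterrupted run of the family (25 codons; chr2:162933828-162934415, plus strand, spanning a splice junction). Srsf2, which had the family's smallest p, had 21 codons (chr11:116852241-116852587, minus strand, spanning a junction). Srsf9 had the shortest, 5 codons (chr5:115332606-115332668, plus strand, in 1 coding exon). Runs of 15 codons or more occurred in 0.23% of the 10433 listed genes with a coding sequence.
Srsf6: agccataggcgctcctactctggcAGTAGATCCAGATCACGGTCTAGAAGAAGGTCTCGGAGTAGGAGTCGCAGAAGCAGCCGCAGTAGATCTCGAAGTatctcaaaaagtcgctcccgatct
Srsf2: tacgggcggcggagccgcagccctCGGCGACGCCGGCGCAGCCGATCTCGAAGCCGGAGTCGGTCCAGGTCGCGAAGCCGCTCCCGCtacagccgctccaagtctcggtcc
Srsf9: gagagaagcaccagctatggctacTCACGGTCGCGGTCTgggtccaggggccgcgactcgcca

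The helicases carry the motif that binds and hydrolyses ATP. Codons for Asp-Glu-Ala-Asp (the DEAD of the family name) were found in frame in 26 of 34 DDX genes, against 1.06% of all listed genes. Codons for Asp-Glu-Ala-His (DEAH) were found in 8 of 15 DHX genes, against 0.479%. Matches anywhere in the coding sequence were counted, and whether each is the ATP motif was not checked. Against their family names, Ddx11 had only DEAH codons and Dhx29 only DEAD codons. Ddx39 and Ddx39b had only Asp-Glu-Cys-Asp (DECD), which 0.173% of genes held, and 5 DDX and 6 DHX genes had none of these spellings. The motif is in capitals in the stretches below, all coding. They show the most abundant member (Ddx5), the pair with the member of highest fold change (Ddx39, with Ddx39b), the X and Y copies (Ddx3x, Ddx3y), a near-identical neighbour pair (Ddx19a, Ddx19b) and the most abundant DHX member (Dhx38).
Ddx5: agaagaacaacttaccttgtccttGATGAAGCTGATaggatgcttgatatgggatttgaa
Ddx39: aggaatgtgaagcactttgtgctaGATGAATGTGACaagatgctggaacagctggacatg
Ddx39b: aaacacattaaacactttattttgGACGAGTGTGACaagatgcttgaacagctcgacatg
Ddx3x: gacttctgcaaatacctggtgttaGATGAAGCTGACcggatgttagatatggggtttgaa
Ddx3y: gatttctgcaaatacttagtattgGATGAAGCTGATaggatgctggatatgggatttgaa
Ddx19a: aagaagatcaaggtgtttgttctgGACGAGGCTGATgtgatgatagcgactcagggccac
Ddx19b: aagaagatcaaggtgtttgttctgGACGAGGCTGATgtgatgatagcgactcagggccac
Dhx38: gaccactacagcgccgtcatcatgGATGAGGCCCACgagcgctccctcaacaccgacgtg

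On GRCm38 these stretches lie at chr11:106785169-106785228 for Ddx5 (minus strand) and chr8:109556041-109556100 for Dhx38 (minus strand), each inside 1 exon. Those of Ddx39 (chr8:83721086-83721738, plus strand) and Ddx39b (chr17:35247066-35248955, plus strand) cross a splice junction. So do those of Ddx3x (chrX:13288930-13289443, plus strand) and Ddx3y (chrY:1265925-1266369, minus strand). The stretches of Ddx19a (chr8:110979062-110979121) and Ddx19b (chr8:111011311-111011370), both on the minus strand and in 1 exon, are letter for letter the same. Of the 50-base words in Ddx19a transcripts, 33.3% also occurred in Ddx19b, so reads of these neighbours may not have been separable. Ddx3y shared only 0.0439% of its words with Ddx3x. How such reads were divided is not given in the labels.

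The libraries and the cell type were checked before the comparison. All 10 alveolar macrophage markers were listed, led by Lyz2 (24463 FPKM on average; FPKM are fragments scaled by transcript length and library total). No T or NK cell (7 genes), B cell (5) or endothelial marker (4) was listed, 1 of 5 fibroblast markers was (Pdgfra, 0.700 FPKM), and 3 of 8 epithelial markers summed to 29.1 to 39.3 FPKM in CEBPb and 33.3 to 67.1 in CEBPb-A, highest in CEBPb-A replicate 3. Of 6 neutrophil markers, S100a8 and Cxcr2 were listed. Their sum, most of it S100a8 (264 FPKM on average), was 202 to 254 FPKM in CEBPb and 289 to 306 in CEBPb-A. These ranges did not overlap, and 7.89% of all genes tested were likewise higher in CEBPb-A without overlap. The part of these markers in the results below was not tested. Tnfaip3, the gene of the delivered A20, was 8.76, 17.7 and 19.2 FPKM in the libraries labelled CEBPb and 7.94, 15.5 and 7.32 in those labelled CEBPb-A, so its transcript was not higher in the libraries labelled as given the A20 virus (mean 10.2 against 15.2 FPKM, exact two-sided permutation p = 0.2, the smallest possible being 0.1). The labels do not say whether the virus carries a human or a mouse A20, so delivery of A20 was not shown by these values, and CEBPb-A is used below as the name of the label only. Cebpb did not separate the groups either (429 ± 66.6 FPKM in CEBPb and 411 ± 70.5 in CEBPb-A, SD, n = 3 each). On the leading axis of a principal component analysis (44.3% of the variance), CEBPb-A replicate 3 scored 25.7 and the other libraries -11.7 to -0.0954. Sequencing depth is unknown, since low FPKM values showed no whole-read steps.

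The 87 genes covered a wide span of levels, from Ddx5 at 150 FPKM (97.6th percentile of listed genes) to Ddx11 at 0.677. Their median was 13.8 FPKM, against 6.52 for all listed genes. By family the median was 33.8 FPKM for hnRNP proteins, 17.6 for SR proteins, 13.9 for SF3 subunits, 8.97 for DDX and 6.03 for DHX helicases. After Ddx5, the most abundant were Hnrnpab (104 FPKM), Hnrnpf (97.1), Sf3b2 (86.3) and Ddx3x (69.2). The ranges over libraries of Hnrnpab (96.8 to 114) and Hnrnpf (85.1 to 102) overlapped. Hnrnpab lay below Hnrnpf in CEBPb replicate 2 (96.8 against 99.8 FPKM) and above it in each other library. The order of these neighbours is uncertain, since 49.0% of the 50-base words of Hnrnpf also occurred in other genes. The lowest Ddx5 library (125) lay above both ranges. Subunits of a single complex also differed: within SF3B, Sf3b2, which lies at the branch point, was at 86.3 FPKM, and Sf3b3, a scaffold subunit, at 8.02. The sum over all 87 genes was 1936 ± 28.4 FPKM in CEBPb and 1913 ± 75.3 in CEBPb-A (SD, n = 3 each).

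**Figure D1:**
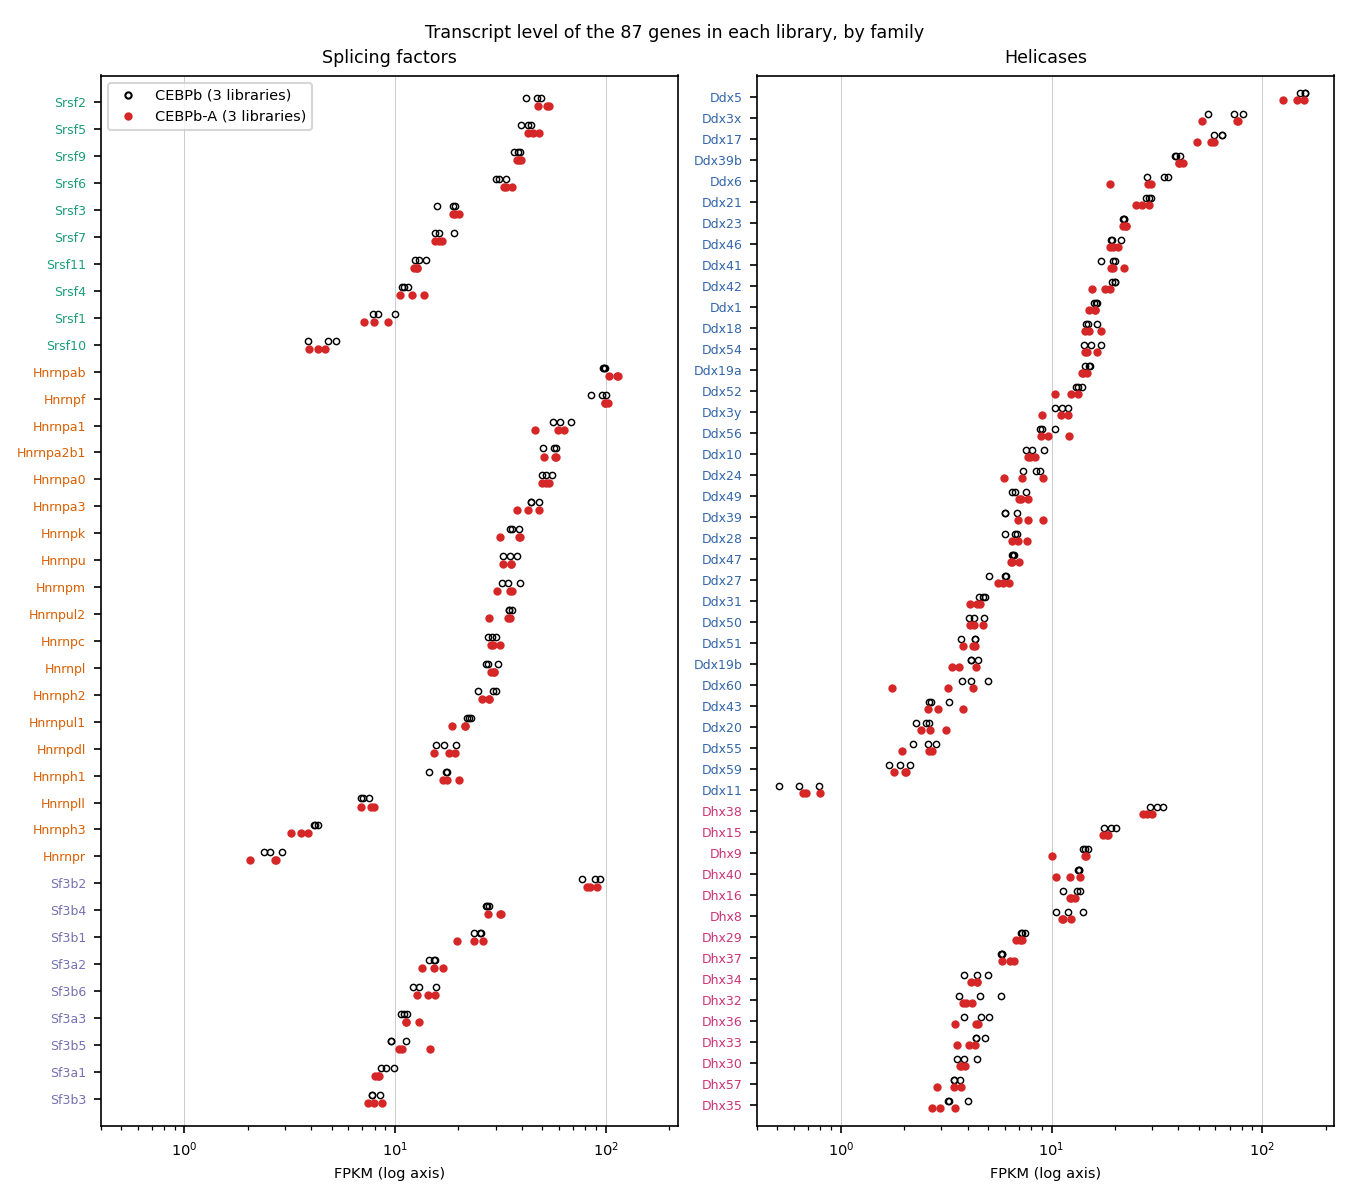
Transcript level (FPKM, log axis) of each of the 87 genes in the 3 CEBPb libraries (open black) and the 3 CEBPb-A libraries (red), grouped by family and ordered by mean. The distance between genes, from 0.677 to 150 FPKM on average, is far wider than that between libraries of 1 gene.

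By its labels, the comparison of CEBPb-A with CEBPb asks whether an A20 adenovirus alters these transcripts in cells that overexpress C/EBPβ. No splicing factor or helicase passed the test. Of the 86 genes tested (Ddx11 lay below the filter of a mean of 1 FPKM), 0 had an adjusted p under 0.05 by limma on log2(FPKM + 1) with Benjamini-Hochberg adjustment over all 9617 genes tested, where 0.052% of genes passed. The smallest adjusted p was 0.588. At an unadjusted p under 0.05 there were 2 members, Ddx39 and Hnrnpab, both higher in CEBPb-A, and 0 lower. Of all genes tested, 8.18% had such a p, 3.76% higher and 4.42% lower. The log2 fold changes, on a log2(FPKM + 1) scale that shrinks those of low genes, ran from -0.42 (Ddx60) to 0.28 (Ddx39) with a median of -0.03, against -0.01 over all genes. Positive values were seen for 35 members and negative ones for 51, and 46.6% of all genes were positive. As these are bulk samples, fewer cells of a type and less RNA per cell cannot be told apart.

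On the log2(FPKM + 1) scale, the data bound most of these genes closely. The 95% interval of the log2 fold change lay within 0.5 of 0 for 82 of 86 members, against 77.4% of all genes. It lay within 1 of 0 for all 86, against 97.4%. The 4 members whose interval reached past 0.5 were Ddx39, Sf3b5, Ddx6 and Ddx60. The lowest bound was -0.94 (Ddx60) and the highest 0.54 (Ddx39). The median size of the fold change was 0.081, against 0.11 over all genes, and the median SE was 0.094, against 0.11. Members were also more abundant than all listed genes (median 13.8 against 6.52 FPKM). The part of level in these differences was not tested. With 0.1 in place of 1 added to FPKM, the lowest fold change of a member was -0.54, against -0.42. In 8 of 86 members, against 16.8% of all genes tested, the 3 libraries of one group did not overlap with those of the other: Ddx39 and Hnrnpab were higher in CEBPb-A (7.89% of all genes were), and Ddx17, Ddx42, Dhx33, Hnrnph3, Hnrnpul1 and Sf3a1 were lower (8.86% of all genes were).

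**Figure D2:**
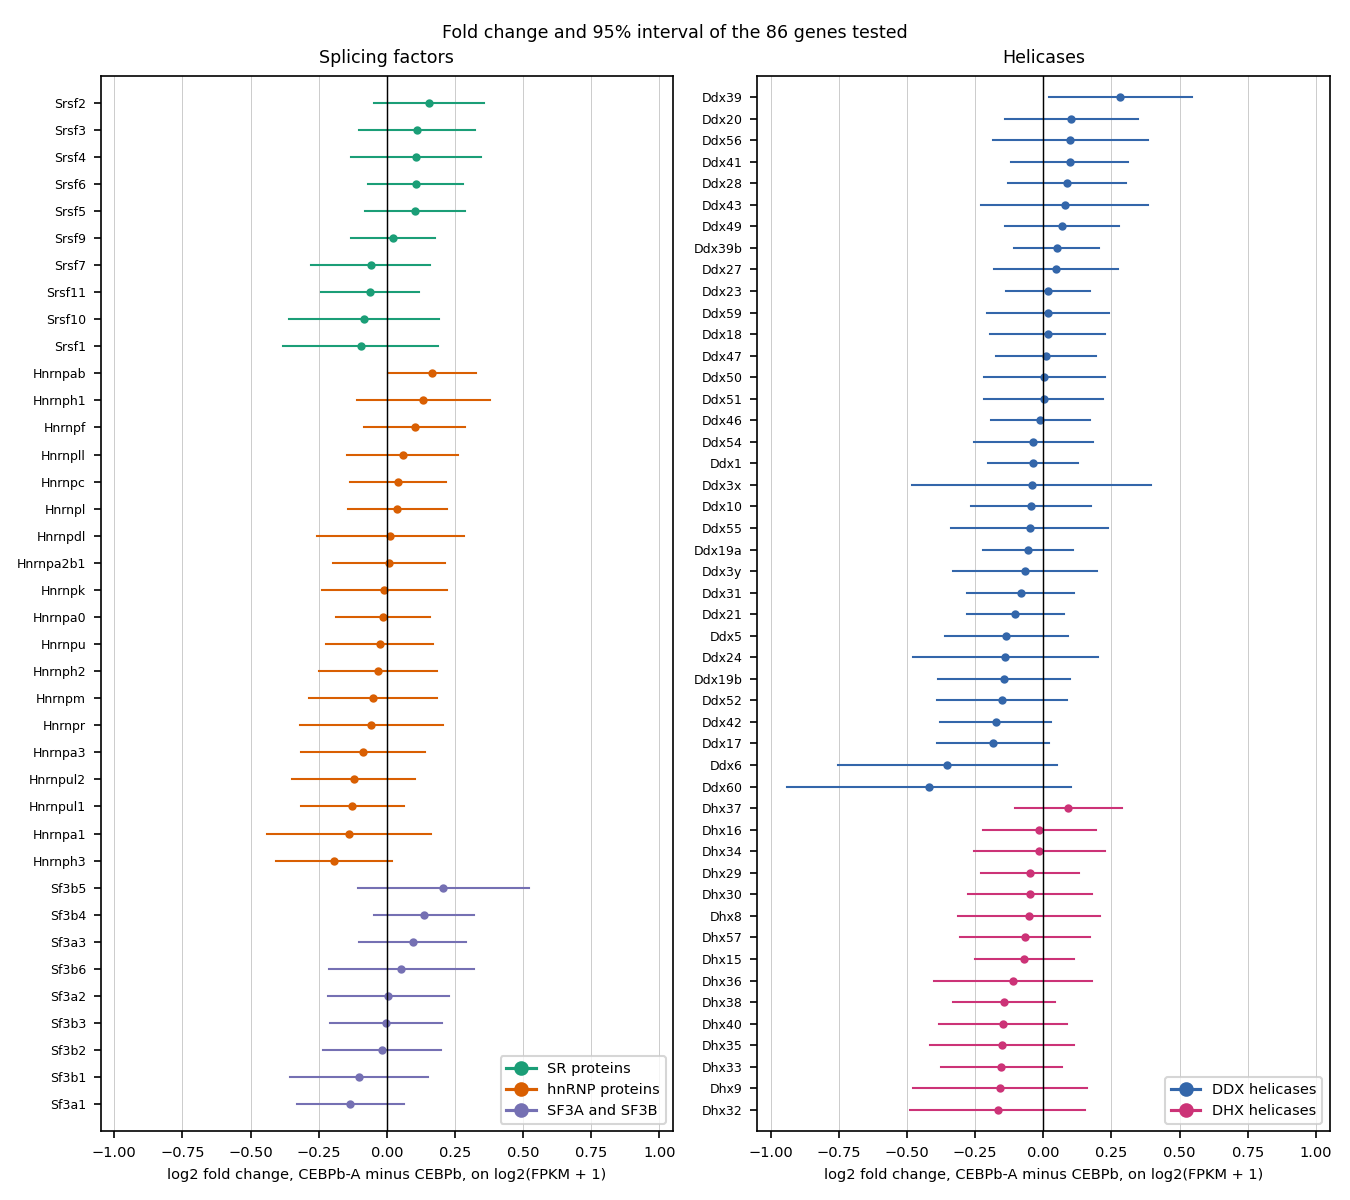
Log2 fold change, CEBPb-A minus CEBPb, on the log2(FPKM + 1) scale (point) with its 95% interval from limma (line) for the 86 genes tested, 3 libraries per group. The intervals of Ddx39 and Hnrnpab alone do not cross 0, and none reaches past 1 in either direction.

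Among SR proteins, the summed level was 230 ± 6.80 FPKM in CEBPb and 242 ± 6.15 in CEBPb-A (SD, n = 3 each), and the median log2 fold change of the 10 genes was 0.063, with 6 positive and 4 negative. Srsf2, also known as SC35, a general splicing factor of nuclear speckles (chr11:116849901-116853094), was 47.2, 49.2 and 42.0 FPKM in CEBPb and 52.7, 53.9 and 47.8 in CEBPb-A. The highest CEBPb library lay above the lowest CEBPb-A library, and the log2 fold change was 0.16 (SE 0.09, 95% interval -0.05 to 0.36, limma adjusted p = 0.591). Srsf6, the SR protein with the longest serine and arginine run above, was 31.1, 33.6 and 30.2 FPKM in CEBPb and 32.9, 35.7 and 33.6 in CEBPb-A (log2 fold change 0.11, SE 0.08). Srsf5 was 39.5, 43.0 and 44.1 FPKM in CEBPb and 48.0, 45.4 and 42.6 in CEBPb-A (0.10, SE 0.08). In both genes the groups overlapped. Srsf1, the founding member of the family, had the lowest fold change (-0.10, SE 0.12, and -0.02 without CEBPb-A replicate 3), and Srsf10, a repressor when dephosphorylated, was the least abundant at 4.46 FPKM. With 1 library left out, the family's median ran from 0.026 (without CEBPb-A replicate 3) to 0.064.

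Among hnRNP proteins, the sum was 705 ± 15.9 FPKM in CEBPb and 711 ± 23.4 in CEBPb-A (SD, n = 3 each), with a median log2 fold change of -0.01, 8 positive and 11 negative. This sign turned under median-of-ratios scaling (0.0057), and the median ran from -0.05 to 0.0098 with 1 library left out. Hnrnpab, an abundant RNA-binding protein with roles in mRNA transport (chr11:51600100-51606847), was 99.6, 96.8 and 98.5 FPKM in CEBPb and 104, 114 and 114 in CEBPb-A. Every CEBPb-A library lay above every CEBPb library. The log2 fold change was 0.17 (SE 0.07, 95% interval 0.00 to 0.33, adjusted p = 0.588 by limma). Under quantile normalization it was 0.084, with an unadjusted p over 0.05, as it also was with CEBPb-A replicate 3 left out (0.14). Hnrnpf, a binder of G-rich tracts, was 96.3, 99.8 and 85.1 FPKM in CEBPb and 99.6, 102 and 99.4 in CEBPb-A, with overlap (0.10, SE 0.08).

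Hnrnph3, a small relative of Hnrnpf (chr10:63014664-63024217), lay lower in each CEBPb-A library (3.57, 3.88 and 3.19 FPKM) than in each CEBPb library (4.13, 4.28 and 4.15). Its log2 fold change was -0.19 (SE 0.09, 95% interval -0.41 to 0.02, limma adjusted p = 0.588). Hnrnpul1, which also acts in the DNA damage response, was 22.0, 22.5 and 22.9 FPKM in CEBPb and 21.5, 21.5 and 18.6 in CEBPb-A, also without overlap (-0.13, SE 0.08). CEBPb-A replicate 3 was the lowest library in both, and without it the fold changes were -0.14 for Hnrnph3 and -0.06 for Hnrnpul1. The exon-skipping factor Hnrnpa1 had the second lowest fold change of the family (-0.14, SE 0.13, and -0.0059 without CEBPb-A replicate 3) and its range over libraries was 46.3 to 68.3 FPKM. The CA-repeat binder Hnrnpl and the poly-U binder Hnrnpc were each at 0.04 (SE 0.08 for Hnrnpl and 0.07 for Hnrnpc).

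The SF3A and SF3B subunits summed to 206 ± 8.20 FPKM in CEBPb and 209 ± 7.86 in CEBPb-A (SD, n = 3 each), and their median log2 fold change was 0.0042, with 5 positive and 4 negative. It was -0.02 without CEBPb replicate 2 (4 positive) and 0.086 without CEBPb-A replicate 1. Sf3b4, an RNA-binding subunit upstream of the branch point, was 27.9, 27.4 and 26.9 FPKM in CEBPb and 27.5, 31.7 and 31.5 in CEBPb-A (0.14, SE 0.08, limma adjusted p = 0.596). The first CEBPb-A library lay within the CEBPb range and the others above it. Sf3b5, the smallest protein of the complex, was 9.59, 9.59 and 11.2 FPKM in CEBPb and 10.5, 10.8 and 14.7 in CEBPb-A (0.21, SE 0.14), and CEBPb-A replicate 3 alone lay above the CEBPb range. Without that library the fold change of Sf3b5 was 0.064. Sf3a1 was 9.03, 8.59 and 9.92 FPKM in CEBPb and 8.31, 8.43 and 8.05 in CEBPb-A, without overlap (-0.13, SE 0.08). Sf3b2, the most abundant subunit, spanned 77.2 to 94.5 FPKM within CEBPb alone (-0.018, SE 0.09). Sf3b1, the subunit that clasps the branch helix and is a known target of splicing inhibitors, had a mean of 24.9 ± 1.11 FPKM in CEBPb and 23.2 ± 3.27 in CEBPb-A (SD, n = 3 each; log2 fold change -0.10, and 0.0058 without CEBPb-A replicate 3).

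The 49 helicases together gave 794 ± 14.5 FPKM in CEBPb and 751 ± 54.6 in CEBPb-A (SD, n = 3 each). The CEBPb libraries were at 799.7, 805.3 and 778.0 FPKM, and the CEBPb-A libraries at 794.0, 768.9 and 689.5. CEBPb-A replicate 3 lay lowest, and replicate 1 lay within the CEBPb range. The median log2 fold change was -0.04 for 33 DDX genes (15 positive, 18 negative) and -0.07 for 15 DHX genes (1 positive, 14 negative). Without CEBPb-A replicate 3 the medians were 0.0078 (17 positive) and -0.03 (4 positive). Without CEBPb-A replicate 1 they were -0.04 (10 positive) and -0.13 (1 positive).

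The helicases that work in the spliceosome (11 genes, median -0.01 and 0.0045 under median-of-ratios scaling, -0.04 to 0.030 with 1 library left out, 4 positive and 7 negative) act in turn: Ddx39b and Ddx46 help the U2 particle onto the branch point, Ddx23 hands the 5' splice site over, Dhx16 and Dhx38 drive the catalytic steps, and Dhx8 and Dhx15 release the product and take the machine apart. Ddx39 (chr8:83715177-83726892), the close relative of the export and splicing factor Ddx39b, had the highest fold change of all members. It was 6.85, 6.01 and 6.04 FPKM in CEBPb and 6.91, 7.73 and 9.11 in CEBPb-A. The groups did not overlap, but the lowest CEBPb-A library lay only just above the highest CEBPb library. The mean was 1.26-fold that of CEBPb (7.92 ± 1.11 against 6.30 ± 0.480 FPKM, SD, n = 3 each), with a log2 fold change of 0.28 (SE 0.11, 95% interval 0.02 to 0.54, adjusted p = 0.588 by limma). Without CEBPb-A replicate 3 it was 0.19, with an unadjusted p over 0.05. Ddx39b was far more abundant, at 39.5 ± 1.29 FPKM in CEBPb and 40.9 ± 1.11 in CEBPb-A (SD, n = 3 each), with overlap.

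Ddx42, which associates with SF3B, was 19.4, 19.96 and 20.1 FPKM in CEBPb and 18.9, 17.9 and 15.6 in CEBPb-A, without overlap (-0.17, SE 0.09, and -0.10 without CEBPb-A replicate 3). It lies outside the rule for named genes and was picked after its values were seen. Dhx38, the helicase of the second catalytic step, was 31.6, 29.4 and 33.7 FPKM in CEBPb and 29.9, 28.4 and 27.1 in CEBPb-A (-0.14, SE 0.08). Dhx15, which dismantles the spent spliceosome, was 19.1, 20.3 and 17.8 FPKM in CEBPb and 18.5, 18.3 and 17.5 in CEBPb-A (-0.07, SE 0.08). The groups overlapped in both, and without CEBPb-A replicate 3 Dhx38 was at -0.11 and Dhx15 at -0.05.

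Helicases of transcription and of several RNA steps (5 genes, median -0.14, 1 positive and 4 negative) include the most abundant ones. Ddx5, or p68, is a transcriptional coactivator that also works in splicing and microRNA processing (chr11:106780355-106789185). It was 152.0, 160.0 and 159 FPKM in CEBPb and 158, 147 and 125 in CEBPb-A. The first CEBPb-A library lay within the CEBPb range and the others below it. The log2 fold change was -0.14 (SE 0.10, limma adjusted p = 0.627), and -0.04 without CEBPb-A replicate 3. Its partner Ddx17, or p72, was 64.4, 64.5 and 59.2 FPKM in CEBPb and 58.9, 57.4 and 49.3 in CEBPb-A, without overlap (-0.18, SE 0.09, limma adjusted p = 0.588, and -0.11 without CEBPb-A replicate 3). With 1 library left out, the median of the 5 genes ran from -0.21 (without CEBPb-A replicate 1) to -0.0099 (without CEBPb-A replicate 3).

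All 8 helicases of translation, export and mRNA decay had a negative log2 fold change (median -0.06, and -0.14 to -0.02 with 1 library left out). Under median-of-ratios scaling 1 was positive, and with CEBPb-A replicate 3 left out 3 were positive and 5 negative. Ddx6, a translational repressor of processing bodies that acts with the decapping enzyme (chr9:44604892-44640731), was 34.1, 35.9 and 28.4 FPKM in CEBPb and 29.8, 28.7 and 19.0 in CEBPb-A. The groups overlapped, and replicate 3 was the lowest library in each. The log2 fold change was -0.35 (SE 0.17, 95% interval -0.75 to 0.05, limma adjusted p = 0.588), and -0.15 without CEBPb-A replicate 3. Ddx3x, a helicase of translation initiation encoded on the X chromosome, was 73.6, 81.2 and 55.4 FPKM in CEBPb and 76.2, 76.8 and 51.8 in CEBPb-A (-0.04, SE 0.19, and 0.14 without CEBPb-A replicate 3). Ddx3y, its Y-linked counterpart, was 11.98, 11.3 and 10.4 FPKM in CEBPb and 11.9, 11.1 and 9.05 in CEBPb-A (-0.07, SE 0.11, and 0.039 without CEBPb-A replicate 3). Both replicate 3 libraries were the lowest for each of these genes, while the groups overlapped.

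The ribosome biogenesis helicases, which unwind pre-ribosomal RNA in the nucleolus (16 genes), were split evenly, with 8 positive, 8 negative and a median of -0.02 (0.0005 under median-of-ratios scaling). Dhx33 was 4.82, 4.38 and 4.39 FPKM in CEBPb and 4.04, 4.33 and 3.56 in CEBPb-A, without overlap (-0.15, SE 0.10, and -0.09 without CEBPb-A replicate 3). The mitochondrial helicases Ddx28 and Dhx30, which help to assemble the mitochondrial ribosome, were at 0.09 (SE 0.09, and 0.033 without CEBPb-A replicate 3) and -0.05 (SE 0.10). Among the other helicases, Dhx40 was 13.6, 13.5 and 13.3 FPKM in CEBPb and 12.2, 13.6 and 10.5 in CEBPb-A (-0.15, SE 0.10, and -0.06 without CEBPb-A replicate 3). Ddx60, an interferon-inducible antiviral factor, is named because its values were the most extreme and was chosen after they were seen. It was 3.75, 4.99 and 4.13 FPKM in CEBPb and 4.23, 3.23 and 1.75 in CEBPb-A, with overlap (-0.42, SE 0.22, 95% interval -0.94 to 0.10, limma adjusted p = 0.589). With CEBPb-A replicate 3 left out, Ddx60 was at -0.16 and no member's log2 fold change was below -0.20.

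**Figure D3:**
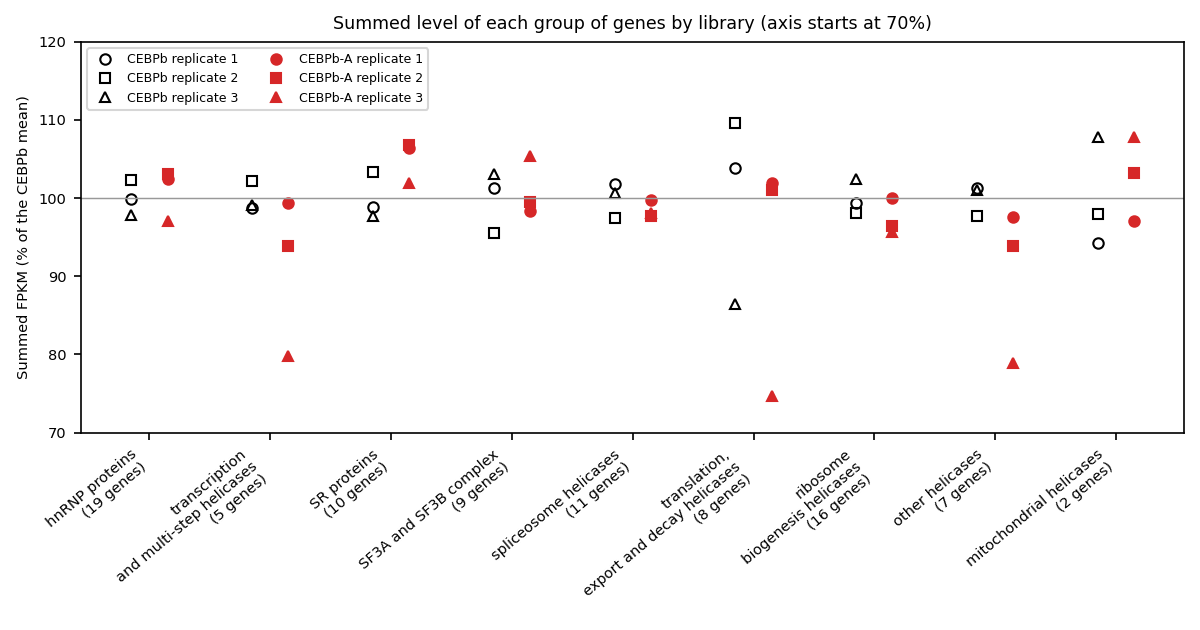
Summed FPKM of each functional group of genes in each of the 6 libraries, as a percentage of the mean of the 3 CEBPb libraries (the axis starts at 70%). CEBPb-A replicate 3 (red triangle) is at 74.6% for translation, export and decay helicases, 79.9% for transcription and multi-step helicases and 79.0% for other helicases. The other CEBPb-A libraries are between 93.8% and 102% in these groups. For translation, export and decay helicases, CEBPb replicate 3 is at 86.5% and CEBPb replicate 2 at 110%. Sums weigh abundant genes most: Ddx3x (69.2 FPKM on average) and Ddx6 (29.3) in that group. Among transcription and multi-step helicases these are Ddx5 (150) and Ddx17 (58.9).

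CEBPb-A replicate 3 was the lowest of the 6 libraries in 38 of 86 members (44.2%), against 35.8% of all genes tested. The 3 CEBPb-A libraries differed from the CEBPb mean by a median over members of 0.014, -0.0078 and -0.077 on the log2 scale. The 2 replicate 3 libraries were together the lowest pair in 21 members (24.4%), among them Ddx3x, Ddx6, Dhx9 and Srsf1, against 17.0% of all genes. They were the highest pair in 12 members (14.0%), among them Sf3b2 and Srsf7, against 10.4%.

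The fold changes went with transcript length. Over the 86 members, Spearman's rho between the log2 fold change and the median length of a gene's coding transcripts was -0.54, given as a description since the genes share the same 6 libraries. Over 9569 genes with a length it was -0.53, so the members followed the relation seen across the table. Without CEBPb-A replicate 3 it was -0.37 in members. That library was not alone in following length. Among members, the deviation of a library from the gene's mean went with length at 0.59 in CEBPb replicate 1 and -0.52 in CEBPb-A replicate 3. Over all genes these were 0.48 and -0.56. In the other libraries the members' values lay between -0.20 and 0.20. Over all genes, CEBPb replicate 2 was at 0.36, and the remaining libraries lay between -0.07 and 0.10. Members at or under 2865 bases had a median log2 fold change of 0.023 with 29 of 43 positive, and longer members -0.07 with 6 of 43 positive. Over all genes these were 0.049 (3424 of 5357 positive) and -0.09 (1030 of 4212). Without CEBPb-A replicate 3, the members' values were 0.033 (28 positive) and -0.03 (14 positive). The families differ in length: median transcripts were 2139 bases for SR proteins, 2489 for hnRNP proteins, 3222 for SF3 subunits and 4073 for DHX helicases. With each library's length trend removed, the medians were -0.0007 for SR proteins (5 positive, 5 negative), -0.0023 for hnRNP proteins, 0.048 for SF3 subunits, 0.0056 for DDX and 0.021 for DHX helicases (8 positive, 7 negative). The 8 translation, export and decay helicases were then at 0.027, with 5 positive.

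**Figure D4:**
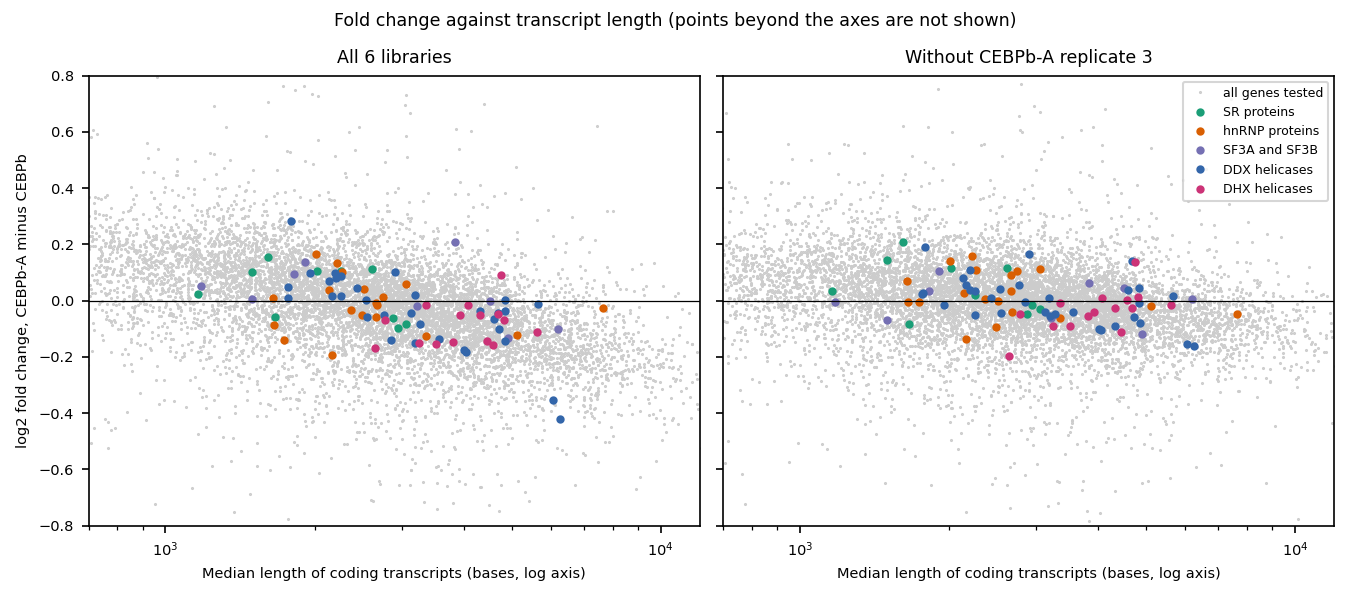
Log2 fold change, CEBPb-A minus CEBPb, against the median length of a gene's coding transcripts (bases, log axis) with all 6 libraries (left) and without CEBPb-A replicate 3 (right), for all genes tested (grey) and the members by family. The members slope down with length inside the grey cloud, with rho -0.54 on the left and -0.37 on the right.

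Many SR and hnRNP genes are known to regulate their own level through isoforms that are destroyed by nonsense-mediated decay. Transcripts annotated as decay targets were found for 9 of 10 SR genes, 9 of 19 hnRNP genes, 1 of 9 SF3 genes, 7 of 34 DDX and 7 of 15 DHX genes. The share over all listed genes was not counted, so whether these families stand out was not tested. The 32 tested members with such a transcript had a median log2 fold change of -0.02 and the 54 without one -0.03. Gene-level FPKM does not divide productive from decay isoforms. Sharing of sequence with other genes touched 16 members at 10% or more of their 50-base words. It was highest for Hnrnpa3 (91.0%), Ddx18 (62.7%), Sf3b4 (49.3%) and Hnrnpf (49.0%), whose levels are uncertain for that reason. Ddx5 shared 22.7%. The median fold change of these 16 members was -0.02, and that of the other 70 was -0.03.

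The rest of the splicing machinery was read from a list of other genes, of which 84 rows were listed and 83 tested. Here too 0 passed the adjusted threshold in limma, against 0.052% of all genes. At an unadjusted p under 0.05, 2 were higher in CEBPb-A (Snrnp35 and Eif4a3, against 3.76% of all genes) and 2 lower (Snrnp200 and Celf1, against 4.42%). The median was -0.02, with 35 positive and 48 negative. Snrnp35, a protein of the minor U11/U12 particle, was 4.44, 5.33 and 6.22 FPKM in CEBPb and 8.05, 8.05 and 7.49 in CEBPb-A, without overlap. Its log2 fold change of 0.49 (SE 0.12, adjusted p = 0.588 by limma) was above that of any member. Without CEBPb-A replicate 3, Snrnp35 was at 0.53 and Eif4a3 at 0.17. Eif4a3, the DEAD-box core of the exon junction complex under another name, was 27.7, 26.8 and 27.4 FPKM in CEBPb and 32.2, 29.5 and 35.8 in CEBPb-A, also without overlap (0.24, SE 0.09).

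Snrnp200, the helicase that unwinds U4 from U6, was 22.3 ± 1.20 FPKM in CEBPb and 18.6 ± 2.03 in CEBPb-A (SD, n = 3 each; -0.25, SE 0.10, and -0.18 without CEBPb-A replicate 3). Celf1, a regulator of splicing and of mRNA decay, was 12.2 ± 1.33 and 9.94 ± 1.23 FPKM (-0.27, SE 0.12, and -0.17 without that library). The 18 proteins of snRNP particles had a median of 0.13 (13 positive, 5 negative). Their transcripts are short (median 1204.5 bases), and their sum was 267, 272 and 263 FPKM in CEBPb and 274, 272 and 315 in CEBPb-A, highest in replicate 3. The median was 0.035 (11 positive) without that library and 0.022 with the length trend removed. The 16 PRPF and tri-snRNP proteins, which assemble and activate the catalytic core, were at -0.05 (3 positive, 13 negative; Prpf8 -0.16, SE 0.10, and Prpf4b -0.15, SE 0.11), and at 0.0023 (8 positive) with the length trend removed. Prpf8 was at -0.07 and Prpf4b at -0.06 with CEBPb-A replicate 3 left out. The 6 SR protein kinases were at 0.037 (Srpk1 -0.08, SE 0.10; Srpk2 -0.15, SE 0.09), the 5 exon junction proteins at 0.073 (Magoh 0.20, SE 0.15) and the 31 SR-related and other regulators at -0.05 (Syncrip -0.23, SE 0.11). These regulators were, with CEBPb-A replicate 3 left out, at -0.0035, Srpk1 at -0.03, Srpk2 at -0.08 and Syncrip at -0.15. The 7 rows of branch point recognition factors were at -0.0019 (0.018 under median-of-ratios scaling), where U2af1l4 appears in 2 rows with fold changes of 0.31 (SE 0.16, and 0.15 without CEBPb-A replicate 3) and -0.14 (SE 0.09).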

How the data were processed

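RNA sequencing of 6 libraries, 3 per group, was analysed. The authors deposited FPKM values per gene; per the file headers FPKM fills 9 columns, and the 6 in the table used here were all read. The submitters' processing notes name GRCm38. The aligner, annotation release and rule for listing genes were not given in the sources used here. Libraries were stranded (KAPA kit, Trizol RNA), per the labels' protocols. FPKM leaves differences in RNA integrity or fragment length between libraries in the values, and depth is unknown, so precision rests on the spread of 3 libraries.

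Genes averaging 1 FPKM or more were fitted on log2(FPKM + 1) with limma 3.58.1 (R 4.3.3, intensity trend, no covariate, two-sided), CEBPb-A minus CEBPb, with Benjamini-Hochberg adjustment over all genes tested and a threshold of 0.05. The fitting script was tested on simulated data. Lengths, coding sequences, decay transcripts and shared words of 50 bases came from GENCODE transcripts of GRCm38, matched by Ensembl identifier without its version (86 of 86 tested members had a length).

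Members and lists were chosen with earlier results of these data known. Named are, in each family, the 3 genes with the smallest p and the 2 with the highest mean FPKM, Ddx3x and Ddx3y, 2 genes of each further list by p, and Tnfaip3 and Cebpb. Other genes are named to show ranges, roles or annotation and were chosen after their values were seen. Alternatives were other pseudocounts, filters, scalings and priors, a replicate block, a loess length correction and leaving out each library.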

Additional observations from a re-analysis of the deposited data

How the results depend on the processing

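No member and no gene of the wider splicing list passed the threshold under any of the 14 alternatives run. There the smallest adjusted p of a member ran from 0.372 to 0.908 by limma, and 0 to 6 members had an unadjusted p under 0.05. The 6 were found without CEBPb-A replicate 1, where 1174 of all 9617 genes tested had such a p. The median log2 fold change of members stayed between -0.046 and 0.0070. Across the named members and check genes, 307 of 320 values kept their sign and 13 turned. Those of Sf3b2 turned to 0.0023 under median-of-ratios scaling and 0.021 with the length trend removed, and ran from -0.10 to 0.043 when 1 library was left out. Ddx3x was 0.060 with the length trend removed and ran from -0.20 to 0.14 with 1 library left out; Ddx3y was 0.032 and ran from -0.14 to 0.039. Cebpb ran from -0.20 to 0.051 with 1 library left out. With the length trend removed, 23 of 86 members changed sign; the cause was not tested. Over all genes, 5 passed, against 0 at a mean FPKM of at least 5 (522 at an unadjusted p under 0.05), 2 under quantile normalization, 8 with the length trend removed and 1 to 9 with 1 library left out.

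The same-numbered libraries correlated in their deviations from the group means at 0.099, 0.25 and 0.26, and each library correlated best with its own number. Libraries of unlike number correlated at -0.24 to 0.087. Deviations from a group mean sum to 0, so positive values for some pairs force negative values for others. The labels state no pairing, so the main fit did not take the numbers as pairs. Its SEs and intervals therefore make no allowance for deviations shared by same-numbered libraries. With a replicate block 0 members passed in limma (smallest adjusted p 0.372), and 5 had an unadjusted p under 0.05. Of all 9617 genes tested, 1285 had such a p with the block, against 787 in the main fit. The members' median was -0.029 with the block, 0 of the wider list passed, and 1 of all genes did.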
